A study of Homo sapiens with 3 samples.

Results

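DMRT1 peaks were described at 7 genes for Eph receptors, EPHA3, EPHA4, EPHA5, EPHA6, EPHA7, EPHB1 and EPHB2, in DZ+PGCLCs, germ cell precursors made in culture and selected for expression of DAZL, at day 8. The peaks taken were all rows of the deposited peak table whose gene name, as annotated by the authors, was 1 of these 7 symbols. This gave 24 of the 7818 peaks in the table, at 5 of the 7 genes: 12 at EPHA3, 7 at EPHA7, 2 at EPHA4, 2 at EPHA6 and 1 at EPHA5. EPHB1 and EPHB2 had none. Of the EPHA3 peaks 3 were annotated as ALR/Alpha, the alpha satellite repeat of centromeres, so that 9 lay outside satellites. The genes were chosen with these peak numbers known, and the numbers are therefore given as a description with no test. Among all 20033 protein-coding genes in RefSeq, 16.6% were given by the authors as the nearest gene of at least 1 peak, and nothing is read from that share for genes that were chosen by their peaks.

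The cells derived from WIS2, an established human embryonic stem cell line, and carried a tdTomato reporter at DAZL, an RNA-binding protein gene of committed germ cells. All of them, including those given the control antibody, carried DMRT1 inducible with doxycycline. They also carried a fusion of SOX17 with the glucocorticoid receptor (GR) inducible with dexamethasone. The paper describes DZ+PGCLCs as made by inducing both transgenes, in BMP2, SCF and EGF and then in retinoic acid, activin A, SCF and EGF. DMRT1 from the transgene cannot be told apart from that of the cells' own gene. DMRT1 binding was mapped by CUT&RUN, in which nuclease tethered through an antibody cuts DNA around the protein and the freed fragments are sequenced, in 2 libraries with antibody to DMRT1 and 1 with rabbit IgG. The table is a single list of peaks common to both DMRT1 libraries, called against IgG. It gives positions and annotation but no peak height, score, q value or value per library, so neither the spread between the libraries nor the depth behind a peak is known, and expression of these genes was not analysed here. Shares over all peaks refer to the 7764 on the assembled chromosomes (1 to 22, X and Y).

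Eph receptors are the largest family of receptor tyrosine kinases, and they are bound by ephrins, which are themselves held on the surface of the neighbouring cell. EphA receptors bind mainly the lipid-anchored ephrin-A proteins and EphB receptors mainly the transmembrane ephrin-B proteins, and signals pass into both cells of a contact, where they act on the cytoskeleton, adhesion, repulsion and the sorting of cells. DMRT1 is a transcription factor of the germ line and testis that binds DNA through its DM domain.

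Peaks that held the core of the DMRT1 motif are shown first, since the core is the sequence by which a DMRT1 site is usually recognised. It was searched as ACAATGT and ACATTGT, which are the reverse complements of each other, so both strands were covered. It was in 2 of the 24 peaks (8.33%, 95% Wilson interval 2.32 to 25.8), both at EPHA3, and in 24.0% of all peaks. Of 48 flanks of the same widths 5 kb to either side of the 24 peaks 2 (4.17%) held the core, against 5.81% of the flanks of all peaks. In the sequences below, from hg38 and on the strand from which the gene is transcribed, the core is in capitals. EPHA3 peak 12, an alpha satellite peak, held the core at 2 places. Peaks are numbered by position along the chromosome within each gene.
EPHA3 peak 1, chr3:89156178-89156224 (plus strand): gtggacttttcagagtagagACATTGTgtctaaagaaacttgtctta
EPHA3 peak 12, chr3:90674316-90674377 (plus strand): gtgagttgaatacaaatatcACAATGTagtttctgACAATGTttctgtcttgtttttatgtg

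A further 5 peaks held no complete core but had one within 100 bp outside an edge, and at EPHA3 peak 4 the core ran across the edge itself. These were 20.8% of the 24 peaks, where 6.74% of all peaks had the core only in that outer zone. Inside or within 100 bp outside, the core was present for 7 of the 24 peaks (29.2%) and for 30.7% of all peaks. These sequences are given because they decide how many of the receptor peaks carry a core.
EPHA3 peak 4, chr3:89173769-89173805 (plus strand): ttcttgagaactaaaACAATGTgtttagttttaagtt
EPHA3 peak 6, chr3:89860577-89860613 (plus strand): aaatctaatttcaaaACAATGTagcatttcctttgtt
EPHA6 peak 2, chr3:97591200-97591236 (plus strand): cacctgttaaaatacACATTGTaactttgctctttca
EPHA7 peak 4, chr6:92994832-92994868 (minus strand): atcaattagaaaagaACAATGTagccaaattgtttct
EPHA7 peak 6, chr6:93397725-93397761 (minus strand): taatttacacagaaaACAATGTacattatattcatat

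A looser description of the site was obtained from a 15-base motif fitted to 2334 other peaks that were outside repeats and on odd-numbered chromosomes, with all 24 Eph receptor peaks left out. A peak was given a site when its best score in bits passed a threshold that 5% of flanks of like width passed. Of the 24 peaks 5 had such a site (20.8%, Wilson interval 9.24 to 40.5), against 24.8% of all peaks and 1 of the 48 flanks (2.08%). Values of the fitted motif over all peaks, here and below, include the 2334 peaks of the fit. None of the 5 receptor peaks with a site had the complete core, so that 7 receptor peaks had a core or a fitted site. The highest score was 13.2 bits at EPHA7 peak 4, against a threshold of 11.8. EPHA4 peak 2 scored 12.8 and EPHA3 peak 8 scored 12.3, EPHA7 peak 1 scored 12.0 and EPHA7 peak 7 scored 11.8, each against 11.7. The last of these was just above its threshold, and EPHA3 peak 1, which held a complete core, was just below with 11.6 bits against 11.8. EPHA3 peak 12, the satellite peak with a complete core, was farther below with 10.2 bits against 11.8. The sites are shown with the 15 scored bases in capitals. All 5 differ from the core in sequence.
EPHA3 peak 8, chr3:90054506-90054550 (plus strand): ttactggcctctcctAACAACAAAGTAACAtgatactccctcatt
EPHA4 peak 2, chr2:221587413-221587457 (minus strand): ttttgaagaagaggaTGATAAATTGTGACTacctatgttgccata
EPHA7 peak 1, chr6:92559072-92559116 (minus strand): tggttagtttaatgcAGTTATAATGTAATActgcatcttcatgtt
EPHA7 peak 4, chr6:92994685-92994729 (minus strand): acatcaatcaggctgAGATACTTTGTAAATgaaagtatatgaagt
EPHA7 peak 7, chr6:93416505-93416549 (minus strand): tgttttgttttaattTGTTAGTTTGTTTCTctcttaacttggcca

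The core with its outer ends exchanged, called the swapped core here and searched as TGTAACA or TGTTACA on the other strand, was found in 7 of the 24 receptor peaks (29.2%, Wilson interval 14.9 to 49.2), while 1 of their 48 flanks (2.08%) held it. Of all peaks 25.0% held this swapped core, and of all flanks 5.79%. In the fitted motif T, G, A, C and A were most frequent at positions 1, 2, 5, 6 and 7, as in TGTAACA. Positions 3 and 4 were mostly A or T. The swapped core is therefore like the first 7 positions of the fitted motif, and not a string unrelated to it. The swapped core was found at EPHA3 (3 peaks), EPHA7 (2 peaks), EPHA4 and EPHA6 (1 peak each). Of these EPHA3 peaks, peaks 10 and 11 are alpha satellite peaks, and their windows below are alike in sequence. The 37-base windows show the swapped core in capitals. In EPHA7 peak 2 the string lay at the very centre of the peak, at a distance of 0 bp.
EPHA3 peak 5, chr3:89428161-89428197 (plus strand): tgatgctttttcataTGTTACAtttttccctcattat
EPHA3 peak 10, chr3:90483059-90483095 (plus strand): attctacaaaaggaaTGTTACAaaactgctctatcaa
EPHA3 peak 11, chr3:90493043-90493079 (plus strand): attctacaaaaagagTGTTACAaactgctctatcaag
EPHA4 peak 2, chr2:221587314-221587350 (minus strand): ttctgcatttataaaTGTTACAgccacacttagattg
EPHA6 peak 2, chr3:97590756-97590792 (plus strand): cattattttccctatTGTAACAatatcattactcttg
EPHA7 peak 2, chr6:92568642-92568678 (minus strand): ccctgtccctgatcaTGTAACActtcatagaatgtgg
EPHA7 peak 6, chr6:93397916-93397952 (minus strand): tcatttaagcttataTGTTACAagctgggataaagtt

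The string of AP-1, the FOS and JUN dimer, searched as TGACTCA and TGAGTCA on both strands, was found in 5 receptor peaks (20.8%, Wilson interval 9.24 to 40.5), while 0 of their 48 flanks held it. The shares over all peaks and all flanks were 13.4% and 4.99%. It was the only searched string in the single peak of EPHA5, where it lay 16 bp from the centre, and the only one in EPHA4 peak 1, where it lay 40 bp from the centre. EPHA3 peak 4 held it 11 bp from the centre, and EPHA7 peak 3 held it at 2 places, 14 and 82 bp from the centre. Both short peaks that carried it near the centre, EPHA5 peak 1 and EPHA3 peak 4, are printed whole, and the others as windows, with the AP-1 string in capitals.
EPHA3 peak 4, chr3:89173657-89173788 (plus strand): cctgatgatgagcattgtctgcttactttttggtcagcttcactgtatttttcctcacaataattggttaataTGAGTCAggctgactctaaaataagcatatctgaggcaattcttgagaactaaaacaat
EPHA5 peak 1, chr4:65623569-65623734 (minus strand): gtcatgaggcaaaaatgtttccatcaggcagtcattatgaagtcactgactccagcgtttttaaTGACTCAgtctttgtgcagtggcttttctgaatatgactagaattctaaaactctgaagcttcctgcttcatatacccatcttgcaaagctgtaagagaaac
EPHA4 peak 1, chr2:221530298-221530334 (minus strand): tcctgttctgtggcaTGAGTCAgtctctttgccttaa
EPHA7 peak 3, chr6:92763167-92763203 (minus strand): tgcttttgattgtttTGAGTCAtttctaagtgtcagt
EPHA7 peak 3, chr6:92763235-92763271 (minus strand): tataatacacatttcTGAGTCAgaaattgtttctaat
EPHA7 peak 4, chr6:92994562-92994598 (minus strand): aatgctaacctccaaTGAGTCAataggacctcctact

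SOX and GR strings were searched because these cells carried a fusion of SOX17 and GR induced with dexamethasone. Whether the GR part of the fusion binds DNA was not examined, so the GR string is not tied to it. The SOX string, searched as CCATTGT and CCTTTGT with their reverse complements, shares its last 6 bases in the first form with the core ACATTGT. It was found only in EPHA3 peak 5 (4.17%, Wilson interval 0.739 to 20.2), while 4 of the 48 flanks held it (8.33%), against 16.7% of all peaks and 10.4% of all flanks. The GR string, a spaced pair of inverted ends of the glucocorticoid response element that reads the same on both strands, was also in 1 peak, EPHA7 peak 1, and in none of the 48 flanks. Over all peaks its share was 0.824% and over all flanks 0.354%. The GR string is in capitals in the window below. Its centre lay 35 bp before the peak centre, and the fitted site of the same peak lay 4 bp before it. Of the 24 peaks 7 held none of these strings and no fitted site. The plot of strings by position shows where each fell. A match to a string describes the sequence only, and does not show that the factor was bound there.
EPHA7 peak 1, chr6:92559104-92559146 (minus strand): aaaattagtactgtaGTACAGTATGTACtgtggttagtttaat

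**Figure D1:**
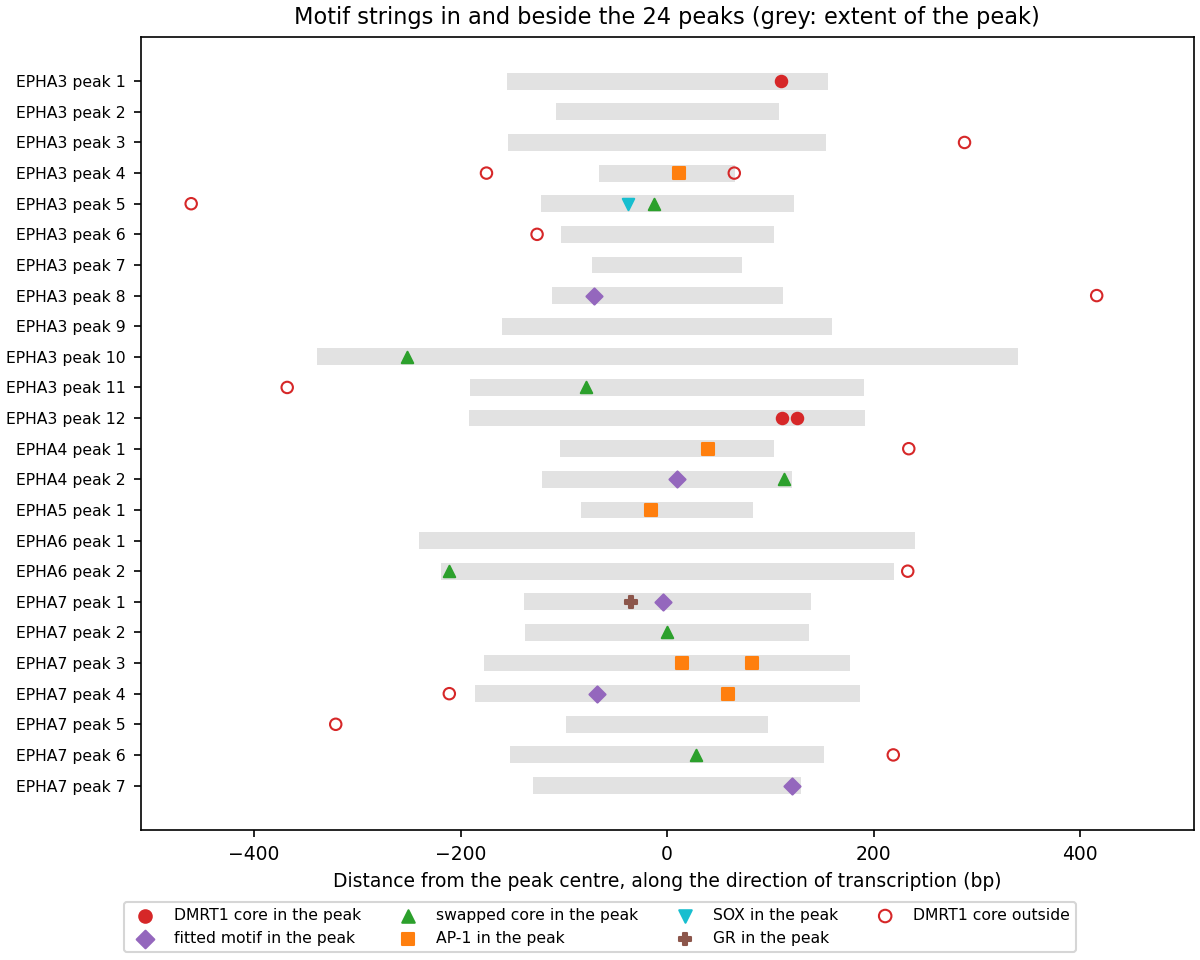
Positions of the searched strings in the 24 Eph receptor peaks, as distance in bp from the peak centre along the direction of transcription; grey bars are the peaks and open circles are cores outside them. Only EPHA3 peaks 1 and 12 hold a filled core marker, and 7 peaks hold the swapped core.

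**Figure D2:**
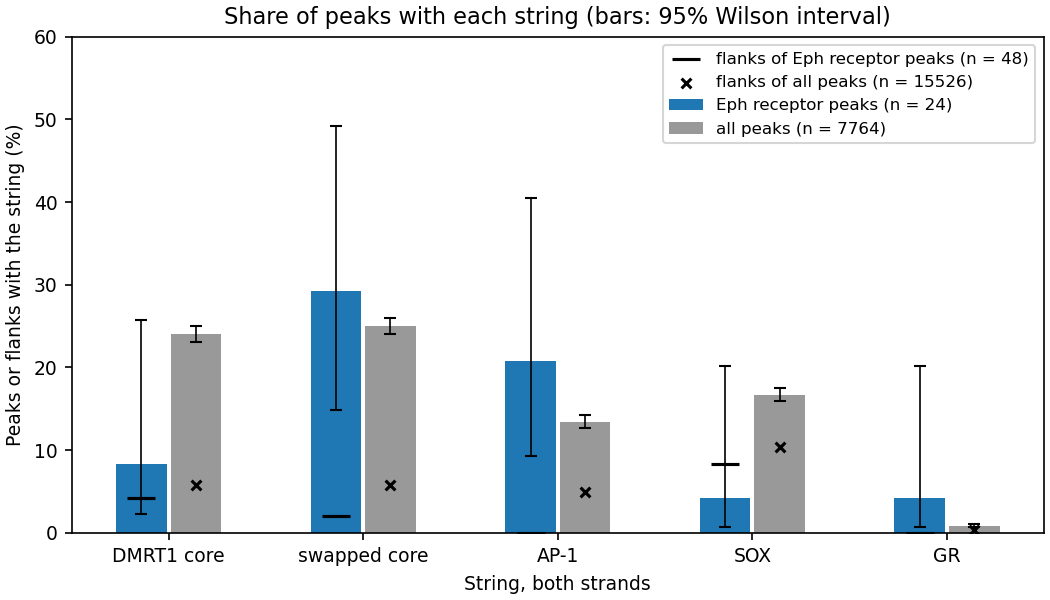
Share of peaks (%, bars with 95% Wilson intervals) that hold each string, for the 24 Eph receptor peaks and for all 7764 peaks, with the shares in flanks 5 kb away as lines and crosses. The core was in 8.33% of receptor peaks and 24.0% of all peaks, and the AP-1 string in 20.8% and 13.4%.

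EPHA3, a high-affinity receptor of ephrin-A5, had the most peaks of the receptor genes. By the authors' annotation, 6 of 20033 protein-coding genes had 12 or more. The 12 of EPHA3 include the 3 satellite peaks, and no rank was taken for the 9 outside satellites. Since the genes were chosen with their peak numbers known, this rank and that of EPHA7 below are descriptions. The gene lies on chr3:89107621-89482134 (plus strand, 375 kb), and 5 of its peaks were inside it. Peaks 1 to 4 lay in intron 2 between chr3:89155936 and chr3:89173788, within 17.9 kb, at 48.5, 53.1, 53.6 and 66.1 kb from the transcription start site (TSS). Peak 1 (chr3:89155936-89156246) was 311 bp wide with a GC content of 36.0%, and its core lay 110 bp from the centre. Peak 2 (chr3:89160568-89160783, 216 bp) and peak 3 (chr3:89161037-89161344, 308 bp) were separated by only 253 bp, and neither held any of the searched strings. Peak 4 (chr3:89173657-89173788) was the narrowest of the 24 with 132 bp, narrower than nearly all others in the table (percentile 0.786 of the widths). Peak 5 (chr3:89428070-89428314, 245 bp) lay far into the gene, in intron 11 of 16 at 321 kb, and held the swapped core and the SOX string.

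The other 7 EPHA3 peaks lay beyond the 3′ end of the gene, on the side of the centromere. Peaks 6 and 7 (chr3:89860619-89860824 and chr3:89861021-89861165) were 196 bp apart at 753 kb from the TSS. Peak 7 lay in a MER34 long terminal repeat. Peak 8 (chr3:90054488-90054711, 224 bp) was at 947 kb. Peak 9 (chr3:90253183-90253502, 320 bp) was at 1.15 Mb, and its centre lay in the GENCODE pseudogene PROS2P, which the authors' annotation had not used. Of its 31-base words 90.3% occurred at a single place on the assembled chromosomes. Peaks 1 and 3 to 8 had 100% and peak 2 had 98.9%. Peaks 6, 7 and 9 held no core, no fitted site and none of the other strings.

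Peaks 10, 11 and 12 of EPHA3 were the alpha satellite peaks, counted apart here. They lay at chr3:90482990-90483668, chr3:90492950-90493330 and chr3:90674037-90674419, at 1.38, 1.39 and 1.57 Mb from the TSS, and were 679, 381 and 383 bp wide. They were thus all wider than the median of the other 21 peaks, which was 259 bp. Compared with itself after a shift, the sequence of peak 10 matched best at 171 bp with 55.3% identity, peak 11 at 171 bp with 52.9% and peak 12 at 169 bp with 60.7%. The median identity over other shifts was 25.9 to 26.7%. Of the 31-base words 48.1% occurred at a single place on the assembled chromosomes for peak 10, 88.0% for peak 11 and 77.3% for peak 12. Copies on other sequences were not counted. Peaks 10 and 11 shared 8 of these words, and peak 12 shared 0 with either. All 24 peaks included, 18 had every word at a single place, and of all peaks 73.2% did. Reads from a word with several copies cannot be placed with certainty, and its part in these 3 peaks was not tested. Satellites made up 1.24% of all peaks (96 peaks).

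**Figure D3:**
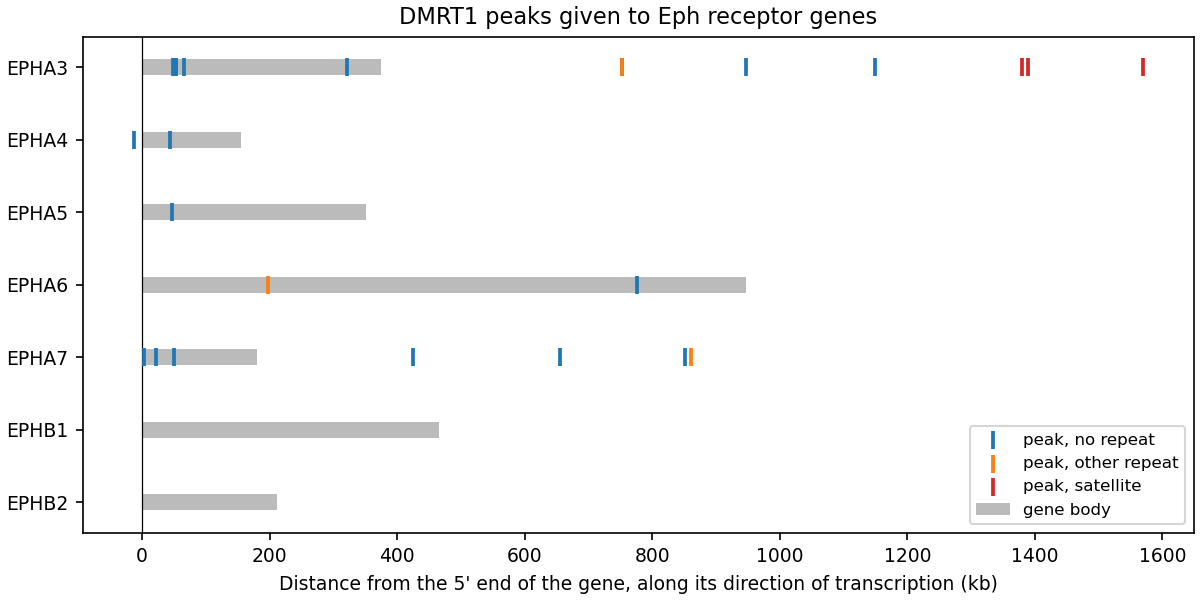
Peaks given to the 7 Eph receptor genes by distance (kb) from the 5′ end of the gene along its direction of transcription, with the gene body as a grey bar and peaks coloured by repeat class. The EPHA3 peaks reach from 48.5 kb to 1570 kb, with the 3 satellite peaks farthest away, and EPHB1 and EPHB2 have none.

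EPHA7, an ephrin-A receptor known from the patterning of the developing nervous system, had 7 peaks, and 25 of the 20033 protein-coding genes had 7 or more. It lies on chr6:93240020-93419687 (minus strand, 180 kb). Peaks 5, 6 and 7 were inside the gene and peaks 1 to 4 were beyond its 3′ end, where the deposited distances were 860, 851, 656 and 425 kb. Peak 1 (chr6:92558952-92559229, 278 bp) lay in a Tigger2 DNA transposon and carried the fitted site and the GR string shown above. Peak 2 (chr6:92568523-92568797, 275 bp) followed 9.29 kb away. Peak 3 (chr6:92763090-92763444, 355 bp) held the AP-1 string at 2 places. Peak 4 (chr6:92994453-92994825, 373 bp) held the fitted site and the AP-1 string, with a core just outside its edge. Peak 5 (chr6:93369332-93369527, 196 bp) and peak 6 (chr6:93397811-93398114, 304 bp) were both in intron 3 of 16, at 50.1 and 21.6 kb. Their GC contents of 31.1 and 32.2% were the lowest of the 24 peaks. Peak 6 held the swapped core, and peak 5 none of the strings.

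EPHA7 peak 7 (chr6:93416519-93416777, 259 bp) stood apart from the other 23 peaks. It was in intron 1 and annotated as a CpG island, 1 of 18 such peaks in the table (0.232%). It had a GC content of 61.0%, whereas the other 23 lay between 31.1 and 39.8%, and it held 24 CpG dinucleotides (9.27 per 100 bp) where no other receptor peak had more than 8. Its deposited distance was 2911 bp, the shortest of the 24, and the nearest of 3 RefSeq starts of EPHA7 was 512 bp away. The whole peak is printed with CpG in capitals. The dinucleotide was spread through most of the peak, and the AT-rich stretch at its end is where the fitted site lay.
EPHA7 peak 7, chr6:93416519-93416777 (minus strand): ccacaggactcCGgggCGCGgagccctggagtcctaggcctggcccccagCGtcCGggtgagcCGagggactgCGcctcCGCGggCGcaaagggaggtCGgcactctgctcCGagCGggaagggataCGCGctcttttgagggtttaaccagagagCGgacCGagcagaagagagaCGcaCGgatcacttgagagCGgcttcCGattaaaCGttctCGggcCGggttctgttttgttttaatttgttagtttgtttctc

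EPHA4, a receptor that binds ephrins of both the A and the B class, had 2 peaks, 1 on each side of its TSS. The gene lies on chr2:221418027-221574202 (minus strand, 156 kb). Peak 1 (chr2:221530253-221530459, 207 bp, GC content 39.6%) was in intron 3 of 17 at a deposited distance of 41.9 kb and held the AP-1 string. Peak 2 (chr2:221587325-221587566, 242 bp, GC content 38.4%) lay upstream at -13.2 kb, the only one of the 24 peaks upstream of its gene. It held a fitted site 10 bp from the centre and the swapped core near its edge, 113 bp from the centre.

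EPHA5, an ephrin-A receptor of the nervous system, had a single peak (chr4:65623569-65623734, 166 bp, GC content 39.8%). It lay in intron 2 of 16 at 45.8 kb from the TSS, in a gene of 351 kb (chr4:65319563-65670495, minus strand). The nearest other peak of the table was 858 kb away, the longest such distance among the 24. The median distance to another peak was 23300 bp for the 24 and 90900 bp for all peaks. These medians are a description, since the genes were chosen with their peak numbers known.

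EPHA6, also an EphA receptor, is the longest gene of the family with 947 kb (chr3:96814581-97761532, plus strand), and it had 2 peaks. Peak 1 (chr3:97011197-97011677, 481 bp) was in intron 3 of 17 in an LTR38 long terminal repeat and held none of the strings. Peak 2 (chr3:97590766-97591204, 439 bp) was in intron 11, 776 kb from the start of the gene. Its deposited distance was 151 kb, since a later TSS of the gene is nearer. It held the swapped core, and a core lay just outside its edge. A further peak inside EPHA6, in intron 14 (chr3:97669083-97669242, 160 bp), had been given to ARL6 at a deposited distance of -95.4 kb. It held no core and no fitted site.

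EPHB1 and EPHB2, receptors of ephrin-B proteins with roles in axon guidance and synapses, had no peak by any of 3 ways of giving peaks to genes. Their lengths were 465 and 211 kb. The peak nearest to EPHB1 lay 505 kb upstream and had been given to LINC02004, and that nearest to EPHB2 lay 278 kb upstream and had been given to ZBTB40. At the mean density of peaks on the autosomes (2.78 per Mb of sequence) a body of that length would hold 1.29 peaks for EPHB1 and 0.585 for EPHB2; these are counts at a mean density, not tests. By the same measure EPHA3 had 5 peaks in its body beside 1.04, and EPHA7 had 3 beside 0.499. EPHA4 had 1 beside 0.434, EPHA5 had 1 beside 0.975, and EPHA6 had 3 beside 2.63. Nothing is read from these pairs, since the genes were chosen with their peak numbers known.

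The other 7 Eph receptor genes had no peak either. These were EPHA1, EPHA2, EPHA8, EPHA10 and EPHB3, EPHB4 and EPHB6, of which EPHA10 and EPHB6 encode receptors without kinase activity. Their genes were 16.0 to 51.3 kb long, all shorter than those of the 7 receptors described above. The nearest peak was 76.7 kb away for EPHA1 and 131 kb for EPHA8, and between 376 and 1710 kb for the remaining 5. Of all 14 receptor genes, 5 (35.7%) thus had a peak, beside 16.6% of all protein-coding genes and 9 of 40 other receptor tyrosine kinase genes (22.5%). The 5 genes were chosen with their peaks known and gene length was not matched, so nothing is read from these shares.

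Among the 8 ephrin genes, 2 (25.0%) had peaks. EFNA5, a lipid-anchored ligand of EphA receptors including EPHA3, had 5 by the authors' annotation. Of these 4 were in its introns, at 255, 253, 194 and 98.7 kb from the TSS, and 1 was at -215 kb, upstream, in an L1MC4a element. The peak at 98.7 kb had a GC content of 61.4%. EFNB2, the ligand of EPHB4 on arterial endothelium, had 3 peaks. They were at 34.4 and 21.9 kb in its introns and, at -7.01 kb, in the 3′ UTR of another gene. By the nearest protein-coding start in GENCODE EFNA5 had 17 peaks, more than the 12 of EPHA3, and EFNB2 had 6, so that the ephrin genes had 23 in place of 8. None of the 8 ephrin peaks held the core or a fitted site, while 2 held the AP-1 string and 1 the swapped core. The 6 ephrin genes without a peak, EFNA1, EFNA2, EFNA3, EFNA4, EFNB1 and EFNB3, were 5.82 to 15.6 kb long.

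Peaks were mostly at the long genes of the family. Of the 22 receptor and ephrin genes 8 were 100 kb or longer, and 6 of them had a peak, where 41.8% of all 3356 protein-coding genes of that length did. Of the 14 shorter genes only EFNB2 had one, against 11.5% of all 16677 shorter genes. These shares are a description as well, since the receptor genes with a peak were chosen with their peaks known. The plot of peak number against gene length shows both groups.

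**Figure D4:**
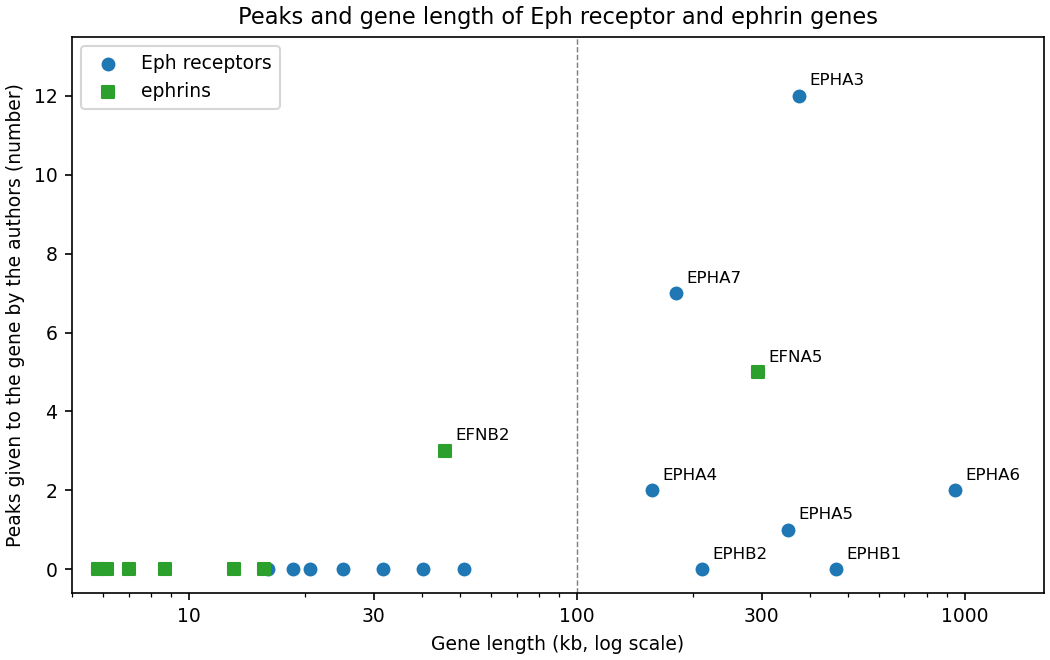
Number of peaks given to each of the 14 Eph receptor genes and 8 ephrin genes against gene length (kb, log scale), with a dashed line at 100 kb. Only EFNB2 (3 peaks, 45.9 kb) has a peak left of the line, and EPHB1 and EPHB2 are the long genes without one.

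Proteins that pass on or end the Eph signal were taken as a list of 28 genes, and 13 of them (46.4%) had a peak, 22 peaks in all. PTPRO, a receptor-type tyrosine phosphatase that acts on Eph receptors, had 5 by the authors' annotation, but 3 in its gene body and 1 by the nearest protein-coding start in GENCODE. GRIP1, a PDZ protein that binds ephrin-B, had 2, as did NCK2, an adaptor protein, PTPN11, the phosphatase SHP2, ROCK1, a kinase downstream of RhoA, and TIAM1, an exchange factor of Rac. In the gene body and by the nearest protein-coding start GRIP1 had 3 and 5, and NCK2 had 1 and 3. Of all protein-coding genes 1018 had 2 or more peaks. The share of all protein-coding genes with a peak was 16.6%, and the list was not compared at matched gene length.

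The genes given to peaks depended on the annotation. The authors gave each peak to its nearest gene with HOMER, and the genes in their table include microRNAs, other noncoding genes and pseudogenes. For the EPHA7 peaks the deposited distance was not taken from the nearest of the RefSeq starts used here. With GENCODE gene bodies instead, 13 peaks lay in the 5 genes, and 13.8% of all protein-coding genes held a peak. With the nearest protein-coding start in GENCODE the 5 genes had 39 peaks, and 20.2% of protein-coding genes had at least 1. Of the 15 peaks added in this way 11 had been given to noncoding RNA genes, 3 to the pseudogene MTHFD2P1 and 1 to ARL6. EPHA6 went from 2 to 8 peaks, EPHA7 from 7 to 11, EPHA5 from 1 to 5 and EPHA4 from 2 to 3, while EPHA3 stayed at 12.

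As a set, the 24 peaks lay farther from a TSS than most. The median distance was 259 kb (range 2.91 to 1570 kb) and 151 kb without the satellite peaks, against 48.4 kb over all peaks. Of the 24 peaks 10 were more than 500 kb away, as were 5.55% of all peaks. All 10 were peaks of EPHA3 or EPHA7, the satellite peaks among them. The peaks of EPHA4, EPHA5 and EPHA6 had deposited distances of at most 197 kb. The distance is part of the authors' annotation from which the genes were taken, and these values are a description. By the authors' annotation 12 peaks were intronic (51.5% of all peaks) and 12 intergenic (42.7%). None was at a promoter, in an exon or in a UTR, classes that took 1.28 and 3.76% of all peaks, and none overlapped a GENCODE exon. Another peak lay within 10 kb for 9 of the 24 peaks, against 11.4% of all, and within 1 kb for 4, against 3.12%. All 9 were peaks of EPHA3 or EPHA7, the receptor genes with the most peaks. The genes were chosen with their peak numbers known, so nothing is read from these shares. Annotated repeats held 6 of the 24 peaks and 39.4% of all.

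In width and base composition the 24 peaks lay within the range of the table as a whole. Their median width was 276 bp (132 to 679), beside 289 bp for all peaks, and 11 of 24 reached that median. The median GC content was 36.2% beside 37.0%, and 23 of the 24 were under 40%, as were 76.3% of all peaks. They held a median of 0.498 CpG per 100 bp beside 0.484. The median of the best score for the fitted motif was 10.1 bits beside 10.4. In the plot of width and GC content the CpG island peak of EPHA7 lies above the rest.

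**Figure D5:**
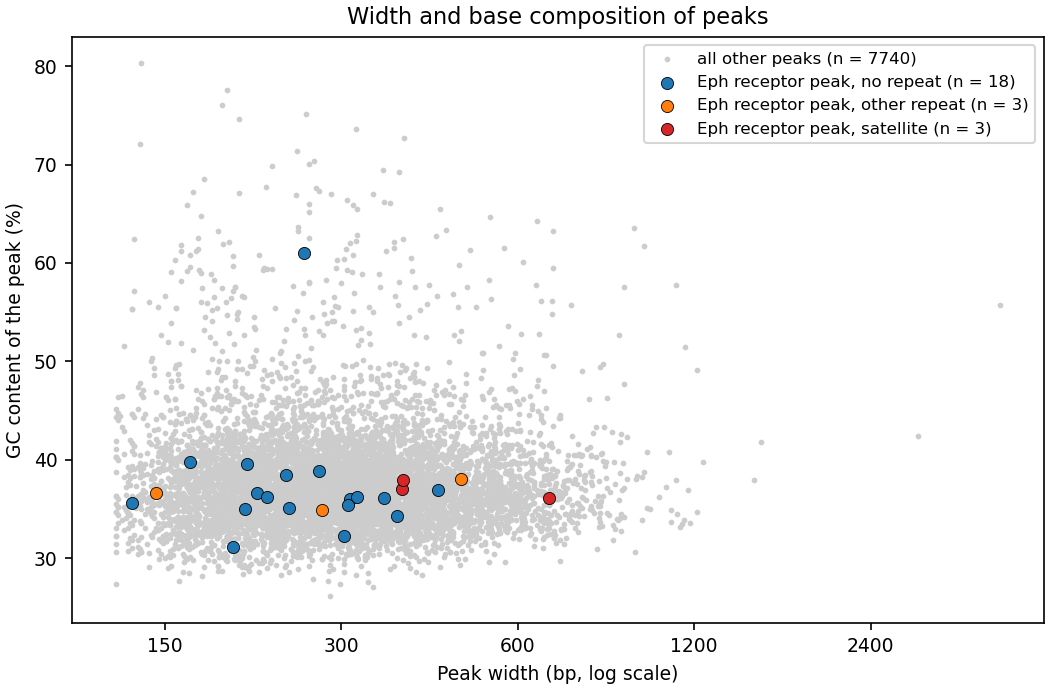
GC content (%) against width (bp, log scale) of the 24 Eph receptor peaks, coloured by repeat class, over all other peaks in grey. The CpG island peak of EPHA7 is at 61.0% GC, and the other 23 lie between 31.1 and 39.8%.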

How the data were processed

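CUT&RUN libraries of day 8 DZ+PGCLCs (2 with DMRT1 antibody, 1 with rabbit IgG) were processed by the authors, who used leeHom for trimming and Bowtie2 for alignment to GRCh38 (2.2.5 in the submitters' processing notes, the methods naming another version), called peaks with MACS2 against IgG with duplicates kept, selected those with a −log10 q above 8 common to both replicates, and annotated them with HOMER. The definition of a common peak is not stated in the sources used here. Keeping duplicates and the q threshold both bear on which regions are listed. The deposited values used are positions in base pairs and the signed distance to the nearest TSS, with annotation text. No count, score or value per replicate was used, so the depth and its precision are unknown, and no test between groups was made.

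Coordinates are 1-based with both ends included. For 22 of the 24 peaks the deposited distance equalled the peak centre minus a GENCODE release 44 start within 1 bp, and sequences were read from hg38. Gene names and types came from RefSeq (GRCh38.p14), in which the Entrez identifiers of all 7 genes were found. Strings were searched on both strands with Python 3.11.15, numpy 2.4.6 and pysam 0.24.0. The 15-base motif was fitted by expectation maximisation started from the core, and its threshold was set in each of 4 width classes (bounds 218, 289 and 388 bp). The code of the fit was run on random sequences with a planted motif that held the core, from which the fit also starts. That run checks the code only and does not bear on the motif fitted to the peaks. The copy number of 31-base words was counted on both strands over chromosomes 1 to 22, X and Y of hg38. Copies on other sequences were not counted, so the share at a single place can be too high, above all for satellites. Wilson intervals (95%) cover counting error only.

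The members, gene lists and strings were chosen with earlier results of these data known. All 7 genes are named with every peak, as is every other Eph receptor and ephrin gene, and up to 6 genes of the signalling list with most peaks. Alternatives were gene bodies or nearest protein-coding starts, leaving out satellites, repeats or narrow peaks, other search windows, flank distances and motif thresholds.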

Additional observations from a re-analysis of the deposited data

How the results depend on the processing

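The number of peaks at the 5 genes was 24 with the authors' genes, 13 with GENCODE gene bodies, 39 with the nearest protein-coding start and 11 when peaks narrower than the median were left out. Without satellites it was 21. For EPHA3 12 peaks became 5 in the gene body and 9 without satellites. The number of receptor genes with a peak was 5 under all 3 assignments. The core, in 2 of 24 peaks, was in 1 of 21 without satellites, in 1 of 18 outside repeats, in 1 when the central 200 bp were searched (16.5% of all peaks), and in 7 when peaks were extended by 100 bp (30.7% of all peaks). The 1 with a core in the central 200 bp was EPHA3 peak 4, where the window ran past the peak, and neither of the 2 peaks with a core held it in the central window. Flanks 1 kb away held it in 4 of 48 cases in place of 2. The fitted site, in 5 peaks, was in 1 with a threshold passed by 1% of flanks (8.45% of all peaks), in 4 with the motif fitted on all chromosomes, and in 5 of 21 without satellites, a setting chosen after seeing the data. No paired analysis was possible because the list is common to both replicates and holds no value per library. Counts this small move by a large share with 1 peak.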
